A study of Mus musculus with 6 samples.

Results

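Cholesterol synthesis and its control by sterol regulatory element-binding proteins (SREBPs) were followed through 29 named genes in mouse C2C12 cells, an immortal line of myoblasts that forms myotubes in medium poor in serum. The genes were chosen by function, with earlier results of these data known. They comprise 7 enzymes of the mevalonate steps, 11 enzymes that turn farnesyl diphosphate into cholesterol, 1 cytosolic cholesterol carrier, 5 genes of the SREBP control circuit and 5 enzymes of fatty acid synthesis and desaturation. A probe was taken for a gene when the RefSeq accession printed for it belonged to that gene's symbol. All 29 genes had at least 1 probe, of 20659 symbols on the array, and 40 of their 41 probes passed the filter on dim signals.

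RNA came from si-SYISL cells, transfected with small interfering RNA against the long non-coding RNA SYISL (3 arrays), and from si-NC cells, transfected with a control small interfering RNA (3 arrays). Both groups were the same cell line, grown in medium with fetal bovine serum, transfected, and then kept for 2 days in medium with 2% horse serum. Levels were read on single-colour Agilent arrays with Cy3 from 1 µg of total RNA. The comparison asks which genes differ when SYISL is targeted during myogenic differentiation.

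Cells make cholesterol from acetyl-CoA through mevalonate, isoprenoid diphosphates, squalene and lanosterol. When the membrane of the endoplasmic reticulum is low in sterol, the escort protein SCAP carries the SREBP precursors to the Golgi, where proteases release a transcription factor that raises transcription of the pathway's enzymes. When sterol is plentiful, INSIG proteins hold SCAP and its SREBP cargo back. SREBP-2 mainly drives the sterol enzymes and SREBP-1 mainly the fatty acid enzymes, and both act at promoters together with NF-Y, which binds the letters CCAAT. Growing cells need these lipids for new membrane, and myoblasts leave the cell cycle as they form myotubes.

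In both groups the arrays of replicates 1 and 3 agreed within the noise of repeated spots (chi-square per probe 0.189 and 0.201, where the 13 remaining pairs of arrays gave 23.8 to 162). Each such pair was averaged into 1 sample, so each group has 2 samples. Nothing in the labels says whether replicates came from separate cultures, and p-values therefore measure the spread among these samples alone. On the si-SYISL arrays 87.9 to 90.6% of spots were well above background and on the si-NC arrays 78.2 to 84.6%, and 0 spots were saturated. The gene table used here assigned no probe to SYISL, and the knockdown could not be checked on these arrays. All 9 muscle markers listed were above background on all 6 arrays. In whole-culture RNA, fewer cells of a type and less RNA per cell cannot be told apart. Levels are log2 intensities minus the 75th percentile of the same array, and they are compared only within a probe. The exception is the sums of marker genes, which add linear levels over probes, so that the brightest markers weigh most.

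Promoter sequence is shown for 4 of the enzymes. Hmgcs1, which makes HMG-CoA, stands for the enzymes with the core of the sterol element. Another 3 stand for the enzymes that differed most between the si-SYISL samples, namely Mvd, which makes isopentenyl diphosphate, Lss, which closes the ring of lanosterol, and Nsdhl, which acts in removing methyl groups from the ring. These 3 were picked after their values were seen. Each line gives the 250 bases before the annotated start, 5′ to 3′ on the gene's own strand, from RefSeq annotation of GRCm38.p6. Capitals mark CCAAT on either strand (ATTGG on the opposite one) and, in Hmgcs1, the letters CACCCCAC, the core of the sterol regulatory element. The Hmgcs1 stretch lies at chr13:119690101-119690350 on the plus strand, that of Mvd at chr8:122443423-122443672 on the minus strand, that of Lss at chr10:76531355-76531604 on the plus strand and that of Nsdhl at chrX:72918271-72918520 on the plus strand.
Hmgcs1: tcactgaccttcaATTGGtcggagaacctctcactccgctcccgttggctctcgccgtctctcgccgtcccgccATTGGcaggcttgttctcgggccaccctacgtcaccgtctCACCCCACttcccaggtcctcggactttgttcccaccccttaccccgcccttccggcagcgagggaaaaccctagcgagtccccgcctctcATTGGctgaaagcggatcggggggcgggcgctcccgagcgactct
Mvd: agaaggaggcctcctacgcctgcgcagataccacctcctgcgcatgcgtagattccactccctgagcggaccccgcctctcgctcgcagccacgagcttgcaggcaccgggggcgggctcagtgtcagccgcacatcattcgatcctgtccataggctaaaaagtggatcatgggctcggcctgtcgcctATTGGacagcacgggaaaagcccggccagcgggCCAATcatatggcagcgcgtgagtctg
Lss: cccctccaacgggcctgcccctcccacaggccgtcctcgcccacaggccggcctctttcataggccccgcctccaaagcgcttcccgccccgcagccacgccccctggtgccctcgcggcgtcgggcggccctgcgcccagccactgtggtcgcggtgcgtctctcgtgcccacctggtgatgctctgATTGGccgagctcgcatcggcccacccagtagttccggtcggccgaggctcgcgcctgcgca
Nsdhl: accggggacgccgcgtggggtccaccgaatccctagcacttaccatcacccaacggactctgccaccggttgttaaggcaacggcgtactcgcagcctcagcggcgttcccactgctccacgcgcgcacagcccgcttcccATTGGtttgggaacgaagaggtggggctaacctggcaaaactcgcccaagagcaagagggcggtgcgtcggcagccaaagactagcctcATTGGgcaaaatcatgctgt

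The promoter table held a window of 300 bases, 250 before the start and 50 after it, for 23 of the 29 genes, 31 windows in all. CCAAT was found on either strand in 20 of these 23 genes, against 41.1% of all 27025 genes with a window and 42.3% of the protein-coding ones. By window it was in 21 of the 31, against 37.4% of all windows. GGGCGG, the box bound by SP1, was found in 20 of the 23 genes, against 38.2% of all genes and 49.2% of the protein-coding ones. It was in 24 of the 31 windows, against 35.7% of all windows. The full sterol regulatory element was searched only as an exact string of letters that contains the core. Sites that differ from that string in any letter were not counted, so its absence does not show that a promoter lacks a sterol element. The string was in 0 of the 31 windows and in 0.0913% of all windows. The core, also matched exactly, was in 2, of Acat2 and Hmgcs1, at -181 and -136 from the start, and in 2.87% of all windows. The E-box CACGTG was in 5 of the 23 genes, against 8.09% of all genes and 8.91% of the protein-coding ones. By window it was in 6 of the 31, against 7.15% of all, where overlapping windows of Scap share the same site. These are matches of letters and say nothing of binding.

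Between the groups, no gene of the pathway passed the test. Of 28565 features fitted with limma, 0 had a Benjamini-Hochberg adjusted p under 0.05 (0% of all features), the smallest being 0.0842. The smallest among the 29 genes was 0.171, for Srebf1. With the repeated arrays counted apart, 8 of the 29 passed with the 6 arrays as 6 samples, where 34.2% of all features did, and 5 with the scan as a random block, where 29.8% did, so that neither count stood above its background. Without adjustment 6468 features had p under 0.05. Srebf1 was the 1 of the 29 genes among them that was lower in si-SYISL (5.85% of all features were lower by this rule) and Ebp the 1 that was higher (16.8% of all features were). Across all features the log2 difference had a median of 0.16, on the si-SYISL side, or 0.03 once arrays were quantile-normalised. This median was subtracted from the difference of each gene (si-SYISL minus si-NC, ± SE, 2 samples a group). Adjusted p-values are limma's and refer to the differences before subtraction.

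Most of the 29 genes nevertheless lay on the low side. Relative to all features, 25 of 29 were below the median (50% of all features are, by construction, and 4508 of the 7142 brightest were), and the median of the 29 was -0.22. For 10 of the 29 genes the si-SYISL samples were both lower than either si-NC sample, where 15.8% of all features had this order. For 6 genes they were both higher, where 46.4% of all features were. With each array shifted to its median in place of its 75th percentile, 12 lay below and 2 above, against 25% and 27.7% of all features. With quantile normalisation 13 lay below and 5 above, against 24.1% and 30.3%. Bright features as a class had a lower median, and 24 of the 29 genes were among the 7142 brightest of the 28565 features. Those 7142 had a median of -0.08, with 1643 below and 3196 above by the same rule. Set against that median, the 29 genes were at -0.13 and their 18 mevalonate and sterol enzymes at -0.11. The median of the 29 genes relative to all features was -0.08 when si-SYISL replicate 2 was left out and -0.36 when the other si-SYISL sample was.

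**Figure D1:**
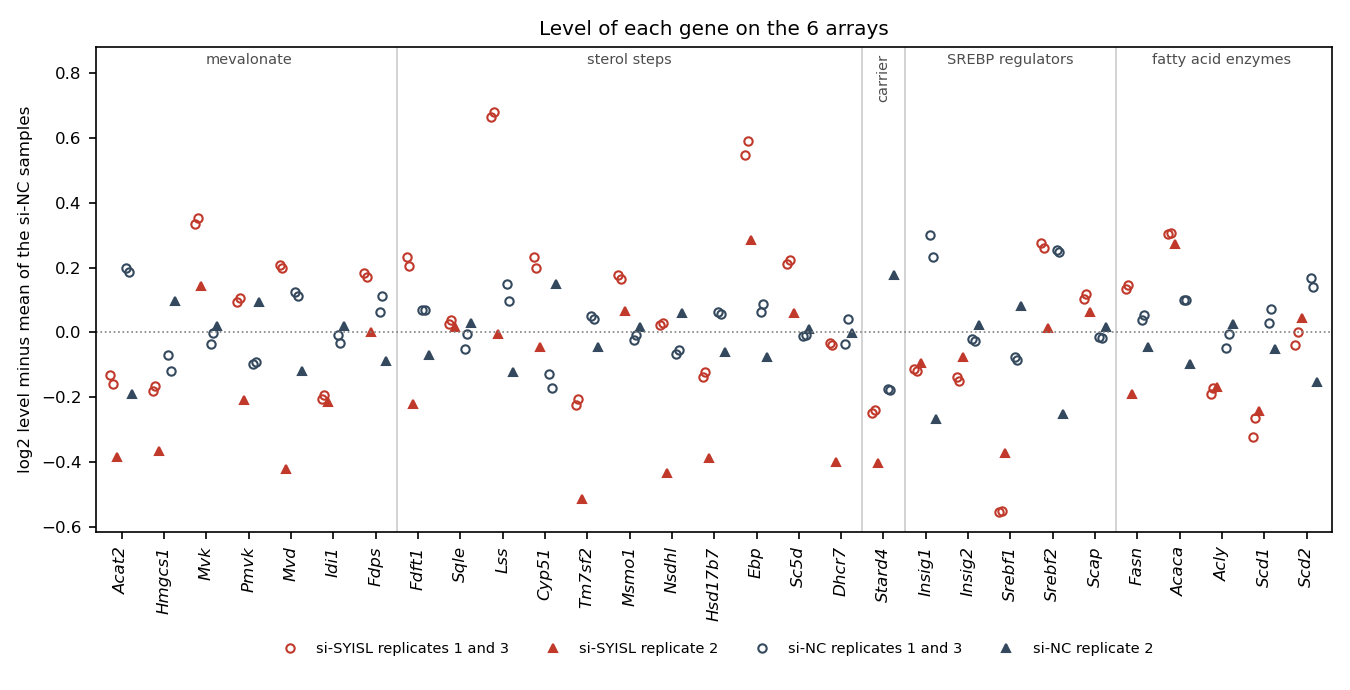
Levels of the 29 genes on each of the 6 arrays, as log2 level minus the mean of the 2 si-NC samples (vertical axis), with genes in pathway order. Red symbols are si-SYISL and dark symbols si-NC, circles are replicates 1 and 3 and triangles replicate 2, and in all 18 mevalonate and sterol enzymes the red triangle lies below the red circles.

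The enzymes' levels also differed between the si-SYISL samples. All 18 enzymes of the mevalonate and sterol steps were lower in si-SYISL replicate 2 than in the other si-SYISL sample, that of replicates 1 and 3. The same was true of 35.1% of all features, and of 3326 of the 7142 brightest. The median difference of the 18 was -0.26, against 0.09 for all features. Within si-NC, 9 of the 18 were lower in replicate 2 than in the sample of replicates 1 and 3, against 49.1% of all features, with a median of 0.01. This pattern was noticed in the data, and with 1 sample on each side it has no test.

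Lss, lanosterol synthase, differed most, at -0.20 in si-SYISL replicate 2 and 0.48 in the other si-SYISL sample, a difference of -0.68. Mvd, the decarboxylase at the end of the mevalonate steps, was at 0.44 and 1.06 in the same samples. Nsdhl was at 2.45 and 2.92. Fdft1, squalene synthase, the first enzyme committed to sterols, was at 3.00 and 3.44. For Lss, Mvd and Fdft1 the si-NC samples also differed in this direction, by -0.25, -0.24 and -0.14, and for Nsdhl the si-NC difference was 0.12. In all, 10 of the 18 enzymes were more than 0.25 lower in si-SYISL replicate 2. Across all features the same difference was -0.34 at the 5th percentile and -0.07 at the 25th. The smallest differences were those of Sqle, the squalene epoxidase, and Idi1, the isopentenyl diphosphate isomerase, both -0.02. Of 6 further probes for these enzymes, 5 were lower in si-SYISL replicate 2 as well, where 35.1% of all features were.

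In the other classes the order was mixed. Replicate 2 was the lower si-SYISL sample for 2 of the 5 SREBP control genes and 2 of the 5 fatty acid enzymes, near the 35.1% of all features. These fatty acid enzymes were Fasn at -0.33 and Acaca at -0.03. Srebf1 went the other way, at 0.18. Whether the classes differ was not tested. The count of 18 enzymes held with quantile normalisation, a median shift, the deposited series matrix, no filter, a filter on all 6 arrays, and with replicate 1 or 3 alone in place of their mean, and was 16 with normexp background.

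**Figure D2:**
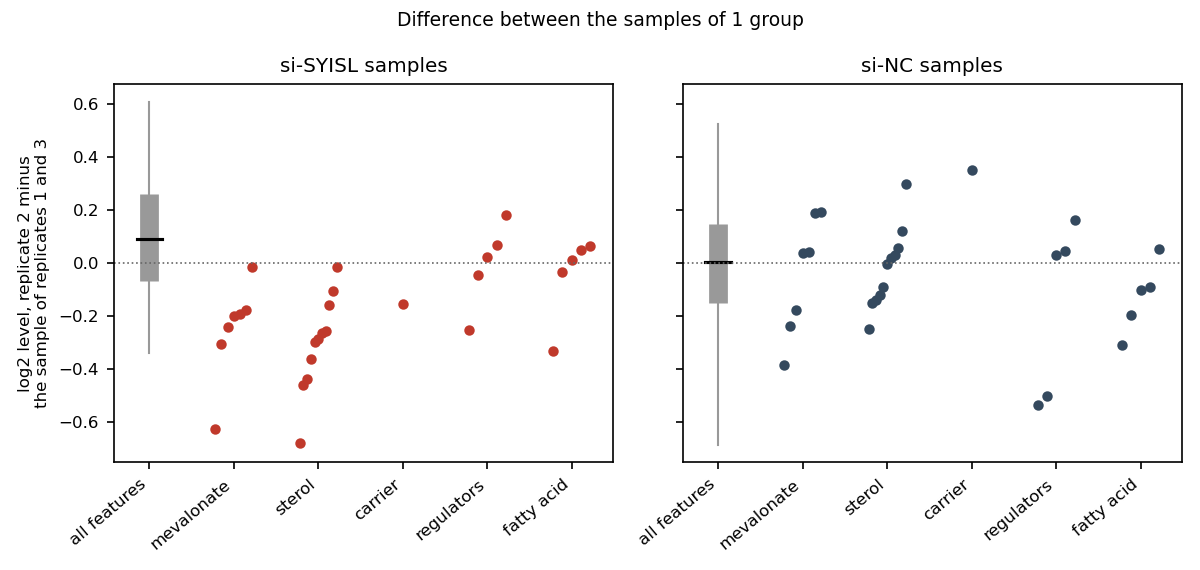
Log2 level in replicate 2 minus that in the sample of replicates 1 and 3 (vertical axis), for si-SYISL samples on the left and si-NC samples on the right, each point 1 gene. The grey box spans the 25th to 75th percentiles of all features, the thin line the 5th to 95th, and the black bar marks the median. In si-SYISL, all mevalonate and sterol points lie below 0, and in si-NC they lie on both sides.

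Proliferation markers were lower in si-SYISL replicate 2 as well. In units of each array's 75th percentile they summed to 11.2 in si-SYISL replicates 1 and 3 and to 8.92 in si-SYISL replicate 2, against 10.3 in si-NC replicates 1 and 3 and 13.3 in si-NC replicate 2. All 8 were lower in si-SYISL replicate 2 than in the other si-SYISL sample, where 35.1% of all features were. They include the dim Aurkb, which passed the filter only through si-NC and was well above background on 2 of the 3 si-SYISL arrays. The other 7 were above background on all 6 arrays. Within si-NC 1 of 8 was lower in replicate 2, against 49.1% of all features. The summed level of the 9 muscle markers was 71.8 and 74.1 in the si-SYISL samples, against 59.6 and 56.8 in the si-NC samples. The part of either marker class in the enzymes' levels was not tested.

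The 7 mevalonate enzymes had a median of -0.27 relative to all features, and 6 of the 7 were below the median of all features. All 7 were among the 7142 brightest features, of which 4508 were below that median. Groups did not overlap for 3 of the 7 enzymes, 2 below and 1 above (15.8% and 46.4% of all features). Hmgcs1, the cytosolic HMG-CoA synthase, had levels of 4.72 and 4.53 in the si-SYISL samples (replicates 1 and 3 first, then replicate 2, as in what follows) and 4.80 and 4.99 in the si-NC samples. Both si-SYISL samples lay below both si-NC samples, and the difference was -0.43 ± 0.14 (adjusted p = 0.302), or 0.741 times the si-NC level after that subtraction. Idi1, which interconverts the isopentenyl diphosphate units, had levels of 4.49 and 4.48 in si-SYISL and 4.67 and 4.71 in si-NC. Its samples were tight within each group and did not overlap between them (-0.37 ± 0.11, adjusted p = 0.301).

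Mvk, mevalonate kinase, was the exception among the mevalonate steps. It stood at 3.32 and 3.12 in si-SYISL and 2.96 and 3.00 in si-NC, so that both si-SYISL samples were above both si-NC samples. Relative to all features the difference was 0.08 ± 0.13 (adjusted p = 0.303). A second Mvk probe read 0.97 and 0.55 in si-SYISL and 0.65 and 0.50 in si-NC, so that its groups overlapped (0.03 ± 0.19). Acat2, the cytosolic thiolase that joins acetyl-CoA units, had levels of 0.78 and 0.54 in si-SYISL and 1.12 and 0.74 in si-NC. The ranges overlapped, since the higher si-SYISL sample exceeded the lower si-NC one, and the difference was -0.43 ± 0.19 (adjusted p = 0.402). Pmvk, the next kinase, stood at 3.08 and 2.78 in si-SYISL and 2.89 and 3.08 in si-NC (-0.22 ± 0.16, adjusted p = 0.840). Its second probe was at -0.38 ± 0.20. Mvd had 0.98 and 0.74 in si-NC beside the si-SYISL values above, and both si-NC samples lay between the si-SYISL samples (-0.27 ± 0.25, adjusted p = 0.788). Fdps, which builds farnesyl diphosphate, overlapped at -0.07 ± 0.14 (adjusted p = 0.690).

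Among the 11 enzymes from squalene synthase to cholesterol the median was -0.14, and 9 were below the median of all features. Of the 7142 brightest features, to which 9 of the 11 enzymes belonged, 4508 were below that median. Among the 11 enzymes 3 had both si-SYISL samples below si-NC (15.8% of all features), 3 above (46.4%), and 5 overlapped. Tm7sf2, a sterol reductase, was lowest of the 18 enzymes relative to all features. Its levels were 2.42 and 2.12 in si-SYISL and 2.68 and 2.59 in si-NC (-0.53 ± 0.15, adjusted p = 0.244), and its other probe differed by -0.61 ± 0.24. Hsd17b7, the ketosterol reductase of ring demethylation, had 1.64 and 1.38 in si-SYISL and 1.83 and 1.71 in si-NC. Both si-SYISL samples were the lower ones (-0.42 ± 0.14, adjusted p = 0.321).

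A second Hsd17b7 probe, dimmer and matched to the same accession, gave a larger difference. It read -3.94 and -3.94 in si-SYISL and -2.63 and -2.19 in si-NC, a difference of -1.68 ± 0.18 with an adjusted p of 0.0978 when limma was fitted to every probe on its own. Dhcr7, the reductase of a last step, had -0.25 and -0.62 in si-SYISL and -0.22 and -0.22 in si-NC (-0.38 ± 0.16, adjusted p = 0.426). In si-SYISL, replicates 1 and 3 read close to si-NC and replicate 2 stood apart below them.

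Ebp, the sterol isomerase, was the enzyme farthest on the high side. Levels were 4.71 and 4.42 in si-SYISL and 4.21 and 4.06 in si-NC, all si-SYISL above all si-NC, and the difference was 0.26 ± 0.15 (adjusted p = 0.211), or 1.2 times the si-NC level after that subtraction. Msmo1, the methylsterol monooxygenase, had 4.66 and 4.55 in si-SYISL and 4.47 and 4.50 in si-NC. Sc5d, a sterol desaturase, had 1.96 and 1.80 in si-SYISL and 1.73 and 1.75 in si-NC. Both sat above si-NC in level but were at -0.04 ± 0.11 and -0.02 ± 0.12 relative to all features, that is, at the median.

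The 5 sterol enzymes whose groups overlapped were Fdft1, Sqle, Lss, Cyp51 and Nsdhl. Fdft1 had 3.29 and 3.16 in si-NC, between its si-SYISL samples, and differed by -0.16 ± 0.19 (adjusted p = 0.998). Its other probe, which was very dim, was at 0.01 ± 0.21, and Fdft1 was the only one of the 11 genes with more than 1 kept probe whose probes differed in sign. Lss stood at -0.07 and -0.32 in si-NC, so that both of its replicate 2 samples were low (0.17 ± 0.27, adjusted p = 0.452). Nsdhl had 2.83 and 2.95 in si-NC, with si-SYISL replicates 1 and 3 between them and si-SYISL replicate 2 below (-0.37 ± 0.19, adjusted p = 0.519). The second Nsdhl probe was at -0.11 ± 0.17. Cyp51, which demethylates lanosterol, was at -0.08 ± 0.17 and Sqle at -0.14 ± 0.11. Over the 18 mevalonate and sterol enzymes the median was -0.19, but 0.02 when si-SYISL replicate 2 was left out and -0.41 when the other si-SYISL sample was.

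**Figure D3:**
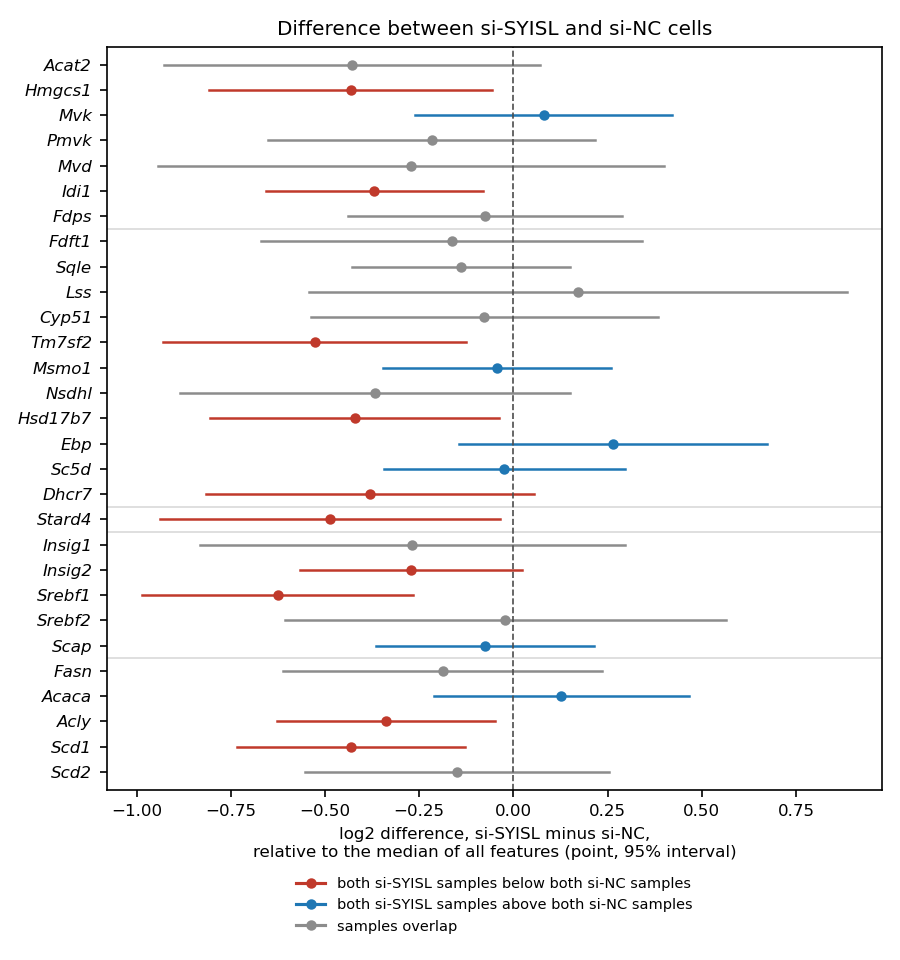
Log2 difference of each of the 29 genes, si-SYISL minus si-NC, relative to the median of all features (horizontal axis), with points for limma estimates and lines for 95% intervals. Red marks the 10 genes with both si-SYISL samples below both si-NC samples, blue the 6 with both above and grey the 13 that overlap; the point farthest to the left is Srebf1.

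Of the SREBP control genes, Srebf1 stood lowest. It encodes SREBP-1, the form tied mainly to fatty acid synthesis. Its levels were -0.09 and 0.09 in si-SYISL and 0.39 and 0.55 in si-NC. The groups did not overlap, and the difference of -0.63 ± 0.13 (95% interval -0.99 to -0.27, adjusted p = 0.171) corresponds to 0.648 times the si-NC level after that subtraction. It was -0.71 to -0.52 when each sample was left out in turn. Srebf2, which encodes SREBP-2, had 1.47 and 1.22 in si-SYISL and 1.45 and 0.95 in si-NC. Those ranges overlapped (-0.02 ± 0.22, adjusted p = 0.690), with a 95% interval from -0.61 to 0.56. A second Srebf2 probe was at -0.01 ± 0.23.

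Insig2, one of the pair of retention proteins, had 2.91 and 2.98 in si-SYISL and 3.03 and 3.08 in si-NC. The gap was small but without overlap (-0.27 ± 0.11, adjusted p = 0.540), and a second probe gave -0.44 ± 0.14. Insig1, the retention protein that is itself an SREBP target, had -2.85 and -2.82 in si-SYISL and -2.46 and -3.00 in si-NC, the si-NC samples enclosing those of si-SYISL (-0.27 ± 0.21, adjusted p = 0.758). Scap, the escort, stood at 2.33 and 2.29 in si-SYISL and 2.21 and 2.24 in si-NC. Though above si-NC in level, it was at -0.08 ± 0.11 relative to all features (adjusted p = 0.619). The median of these 5 genes was -0.27, with 2 below (15.8% of all features), 1 above (46.4%) and 2 overlapping, and it was -0.10 when si-NC replicates 1 and 3 were left out.

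Stard4, a cytosolic carrier that moves cholesterol between membranes and an SREBP-2 target, had 1.53 and 1.38 in si-SYISL and 1.60 and 1.95 in si-NC. Both si-SYISL samples were below (-0.49 ± 0.17, adjusted p = 0.301). Its second probe read -2.39 and -2.49 in si-SYISL and -1.98 and -2.0 in si-NC, again without overlap (-0.60 ± 0.11, adjusted p = 0.156 with every probe fitted on its own).

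The 5 fatty acid enzymes split. Scd1, a stearoyl-CoA desaturase that makes monounsaturated fatty acids, had 5.46 and 5.51 in si-SYISL and 5.80 and 5.70 in si-NC (-0.43 ± 0.11, adjusted p = 0.247). Acly, ATP-citrate lyase, which supplies cytosolic acetyl-CoA to both pathways, had 4.20 and 4.21 in si-SYISL and 4.35 and 4.40 in si-NC (-0.34 ± 0.11, adjusted p = 0.354). In both genes the si-SYISL samples lay below si-NC and close to each other. A second, dimmer Acly probe was at -0.86 ± 0.36, with its si-SYISL samples at -4.46 and -3.89. Acaca, acetyl-CoA carboxylase, was the reverse, at 3.88 and 3.85 in si-SYISL and 3.67 and 3.48 in si-NC, with no overlap (0.13 ± 0.13, adjusted p = 0.257). Its second kept probe, much dimmer, read -4.50 and -4.47 in si-SYISL and -4.40 and -5.59 in si-NC. At that probe the groups overlapped (0.35 ± 0.42).

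Fasn, the synthase itself, had 0.20 and -0.13 in si-SYISL and 0.10 and 0.01 in si-NC. Its si-SYISL samples enclosed those of si-NC (-0.19 ± 0.16, adjusted p = 0.926). Scd2, the other desaturase measured, overlapped at -0.15 ± 0.15 (adjusted p = 0.964). The median of the 5 enzymes was -0.19, and -0.36 when si-SYISL replicates 1 and 3 were left out. SEs of the 29 genes ran from 0.11 to 0.27.

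Neighbouring steps were read from further lists. Of 6 other sterol enzymes 5 were measured, with a list median of -0.37. All 5 were below the median of all features, as were 4508 of the 7142 brightest features. In 4 of the 5 both si-SYISL samples lay below both si-NC samples, against 15.8% of all features, and 0 passed over all features.

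The branch to other isoprenoids, of 12 genes, was near the centre, with a median of -0.03, 3 genes below si-NC (15.8% of all features) and 6 above, a share near the 46.4% of all features. Ggps1, which makes geranylgeranyl diphosphate for protein prenylation, differed by -0.57 ± 0.15 (adjusted p = 0.215), with -0.07 at its second probe. Dhdds, of dolichol synthesis, was at 0.11 ± 0.12 (adjusted p = 0.25), with -0.28 at its second probe. Genes of SREBP transport, cleavage and turnover had a median of -0.09 over 15 genes, 2 below and 7 above, both near the shares of all features (15.8% and 46.4%). The 2 below were Rnf145, a ubiquitin ligase of sterol feedback, with 2.02 and 2.16 in si-SYISL and 2.53 and 2.75 in si-NC (-0.72 ± 0.14, adjusted p = 0.152), and Erlin2, a membrane protein of the same degradation machinery (-0.43 ± 0.12, adjusted p = 0.268).

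Sterol uptake, storage and efflux genes, 22 in all, had a median of -0.12, with 7 below and 7 above, against 15.8% and 46.4% of all features. Soat1, which esterifies cholesterol for storage, had the largest difference among the lipid genes named here, each by its brightest probe. It read -1.84 and -1.23 in si-SYISL and -0.19 and 0.00 in si-NC, -1.60 ± 0.24 relative to all features (adjusted p = 0.120). Nr1h3, which encodes the oxysterol receptor LXR-alpha, was on the other side, at -1.34 and -1.50 in si-SYISL and -2.09 and -1.92 in si-NC (0.43 ± 0.13, adjusted p = 0.141). Its second probe gave 0.50. The 19 further lipid genes had a median of -0.12, 0 below and 4 above (15.8% and 46.4% of all features). Of these 4, 1 very dim gene passed the filter only through si-SYISL, where it was higher. It was well above background on 3 si-SYISL arrays and 1 si-NC array. Acacb, the mitochondrial acetyl-CoA carboxylase, was at 0.23 ± 0.12 (adjusted p = 0.184) and Elovl1, a fatty acid elongase, at 0.05 ± 0.12 (adjusted p = 0.334).

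**Figure D4:**
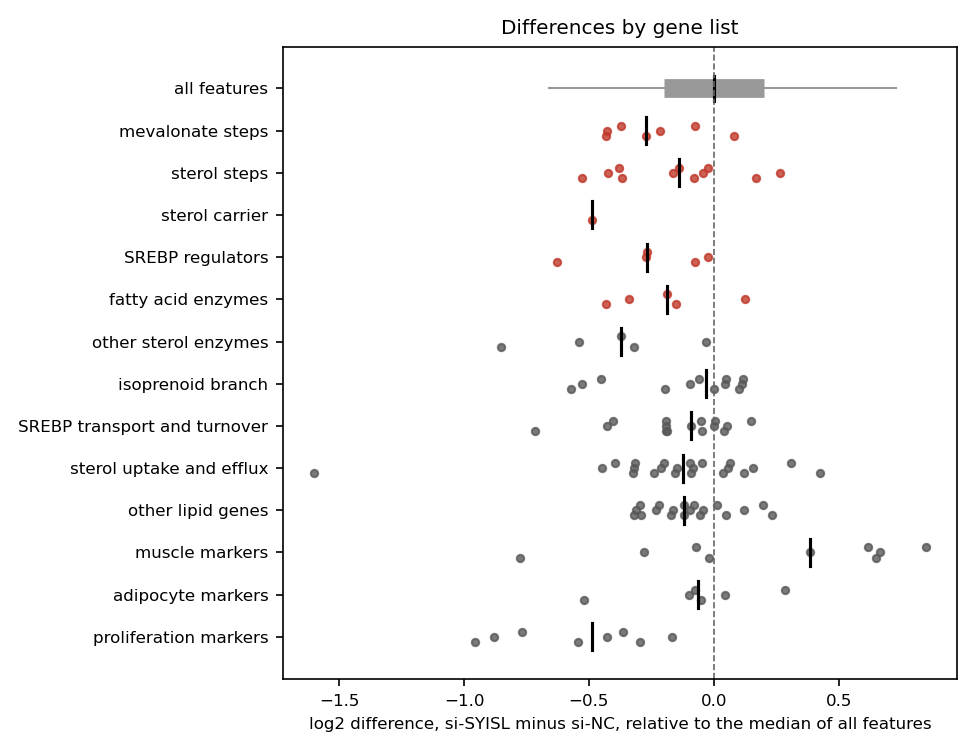
Log2 difference, si-SYISL minus si-NC, relative to the median of all features (horizontal axis), for the 5 classes of the 29 genes in red and for further lists in grey, each point 1 gene and each black bar a list median. The grey box and line for all features span the 25th to 75th and the 5th to 95th percentiles. The proliferation markers, with Aurkb kept only for its si-NC signal, all lie left of 0, and the farthest point is Soat1.

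Among marker genes of the culture itself, muscle markers had a median of 0.38 over 9 genes, with Tnnt1, a slow troponin, at 0.66 ± 0.11 (adjusted p = 0.102), Actc1, an early sarcomeric actin, at 0.85 ± 0.14 (adjusted p = 0.104), Ckm at 0.65 ± 0.15, Myod1 at -0.78 ± 0.13 and Myog at -0.02 ± 0.17. The 8 proliferation markers, 7 of them above background on all 6 arrays, had a median of -0.49, with Cdk1, the mitotic kinase, at -0.88 ± 0.15 (adjusted p = 0.135), and Mki67 at -0.17 ± 0.23 (adjusted p = 0.992). Aurkb, which was kept for its si-NC signal and was well above background on 2 of the 3 si-SYISL arrays, read -6.74 and -7.19 in si-SYISL and -6.14 and -6.22 in si-NC. Adipocyte markers, which lipid genes could follow, had a median of -0.06 over 6 of 8 genes. Of the 8, 5 were above background on all 6 arrays. Summed over all 8, their levels were 2.13 and 2.03 in si-SYISL and 2.36 and 2.30 in si-NC. Pparg, the adipogenic receptor, differed by -0.52 ± 0.12 (adjusted p = 0.198) and Fabp4 by 0.29 ± 0.17 (adjusted p = 0.220). The part of these markers in the differences of the pathway was not tested.

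Markers of cell types that the labels do not name were read too. Hepatocyte markers had a median of -0.13 over 4 of 5 genes, and Ttr was above background on 0 arrays. Sums over all 5, Ttr included, were 0.0849 and 0.118 in si-SYISL and 0.0847 and 0.106 in si-NC. Apoa1, very dim and well above background on 3 si-SYISL and 2 si-NC arrays, was at -0.05 ± 0.11 and Cyp7a1 at 0.04 ± 0.27. Endothelial markers had a median of 0.03 over 4 genes and sums of 1.11 and 1.14 in si-SYISL and 1.04 and 0.956 in si-NC, with Pecam1 at 0.02 ± 0.12 and Kdr at 0.00 ± 0.11. Leukocyte markers had a median of 0.06 over 4 of 5 genes and sums of 3.16 and 2.15 in si-SYISL and 1.71 and 1.71 in si-NC. Itgam carried that sum, at 1.38 and 0.57 in si-SYISL and 0.16 and 0.17 in si-NC (0.65 ± 0.29, adjusted p = 0.215), while Ptprc was at 0.19 ± 0.20 (adjusted p = 0.324).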

How the data were processed

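Expression was measured on 6 single-colour Agilent arrays, 3 from si-SYISL and 3 from si-NC cells. The deposited scanner files hold intensity: gProcessedSignal, background-subtracted and spatially detrended by Feature Extraction but not normalised between arrays, and median spot and background intensities. Flags of 0 or 1 per spot mark signal well above background and outliers (unit other, per the file headers). Feature Extraction was 11.0.1.1 per the file headers and 10.5.1.1 per the submitters' processing notes. The series matrix holds log2 values with near-equal quantiles, deposited by the authors, and was an alternative only.

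The 75th percentile of each array was subtracted from log2 intensity in R 4.3.3 (package data.table, version 1.17.8), leaving out control spots and those with an outlier flag, and repeated spots were averaged. Of 39429 probes, 27234 were named through their RefSeq accession and a gene table of assembly GRCm38.p6. The array's own annotation is of another assembly, so coordinates are given only for RefSeq promoters. Kept probes were those well above background on the 3 arrays of either group. Where a gene had several, the probe of highest mean stands for it, which gave 28565 features, 18643 of them named.

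Groups were compared with limma 3.58.1 (lmFit, eBayes; two-sided; prior df 2.37; Benjamini-Hochberg over all features, threshold 0.05), with replicates 1 and 3 of a group averaged. In both groups replicate 3 was scanned apart from replicates 1 and 2. The code of the fit was checked on simulated data with independent normal noise and without the overall shift between groups seen here. That check does not show how well the fit suits these data. The 29 genes, the lists and the tests were chosen with earlier results of these data known. Named genes are the 29, the 2 of each further list with the smallest p, and Myog, Myod1, Ckm and Mki67. For the list of other sterol enzymes single genes are not reported here. Alternatives were normexp background (offset 50, on median spot intensity), quantile and median-shift scaling, the series matrix, other filters and probe rules, a variance trend, 6 arrays as samples, blocks, and leaving samples out. Figures and motif searches used Python 3.11.15, pandas 2.3.3, numpy 2.4.6 and matplotlib 3.10.9. Precision is limited by how few arrays there are.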

Additional observations from a re-analysis of the deposited data

How the results depend on the processing

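Of the 29 genes, 0 passed under every alternative except those that count the arrays of the repeated sample apart, where 8 passed with the 6 arrays as 6 samples (9768 of 28565 features, 34.2%) and 5 with the scan as a random block (8510 features, 29.8%). Over all features the deviations of same-numbered samples had a correlation of -0.03. With 2 samples a group this cannot tell whether same-numbered samples were handled together. With a replicate block 0 of 28565 features passed, the smallest adjusted p being 0.189. With a median shift 2 of the 29 genes lay above si-NC in place of 6. Relative to the 7142 brightest features, chosen after seeing the data, the median was -0.13 for the 29 genes, -0.11 for the mevalonate and sterol enzymes and for the fatty acid enzymes, and -0.19 for the SREBP control genes. Leaving out each sample in turn gave medians of -0.36 to -0.084 for the 29 genes and -0.41 to 0.020 for the mevalonate and sterol enzymes. The medians were -0.36 to -0.14 for the fatty acid enzymes and -0.27 to -0.099 for the SREBP control genes. With samples left out, 10 to 16 of the 29 genes lay below si-NC, where 20.4 to 26.2% of all features did. Above si-NC lay 6 to 15 of them, where 53.4 to 63.1% of all features did.

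Of the 29 genes, 18 kept their sign under every alternative run and 11 did not, and the cause was not tested. Sc5d turned to 0.0053 with normexp background, 0.088 with quantile normalisation, 0.087 with the series matrix, 0.0061 with a filter on all 6 arrays, 0.025 with 6 arrays as samples or the scan block and 0.058 against the brightest features. Cyp51 turned to 0.036 with quantile normalisation or the series matrix, 0.035 with 6 arrays as samples or the scan block and 0.0052 against the brightest features. Srebf2 turned to 0.12 with quantile normalisation, 0.11 with the series matrix, 0.0089 with the filter on all 6 arrays and 0.061 against the brightest features, and Scap to 0.047, 0.036 and 0.0072 with quantile normalisation, with the series matrix and against the brightest features. By that last measure Fdps was 0.0080 and Msmo1 0.038. With samples left out the ranges were -0.052 to 0.23 for Mvk, -0.62 to 0.087 for Mvd, -0.19 to 0.060 for Fdps, -0.41 to 0.10 for Fdft1, -0.20 to 0.56 for Lss, -0.24 to 0.10 for Cyp51, -0.13 to 0.056 for Msmo1, -0.14 to 0.10 for Sc5d, -0.25 to 0.22 for Srebf2 and -0.39 to 0.025 for Fasn. Over all features, 187 passed with normexp background, 1 with a median shift, 913 with a variance trend, 1381 when si-NC replicates 1 and 3 were left out and 276 when si-NC replicate 2 was.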

Other observations

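Outside the 29 genes, probes of 1 gene could differ in sign. Of 28 genes of the further lists with more than 1 kept probe, 11 had probes on opposite sides of the median of all features, while this was so for 1 of the 11 such genes among the 29. Some of these values lay within their SE of that median, such as those of Elovl1 (0.06 ± 0.12 and -0.0026 ± 0.21). Among the 29, probes of the same sign could differ in size, as for Hsd17b7 (-0.41 and -1.68). Whether the lists differ in this was not tested.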
